A study of Mus musculus with 6 samples.

Results

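The expression of 10 genes of the amino acid response was examined in the mouse hippocampus (HIPP) after repeated methamphetamine (MA): Phgdh, Psat1, Shmt2, Mthfd2, Asns, Slc3a2, Slc7a11, Chac1, Sesn2 and Trib3. They were selected by gene symbol from a fixed list of ATF4 targets and of genes that supply serine and other amino acids. All 10 had a row in the deposited table of 16060 rows, and 9 passed the filter on low values. The hippocampi came from adult male C57BL/6 mice, with 3 libraries labelled Control and 3 labelled MA. The paper's methods give intraperitoneal saline for the control group and, for the MA group, 5 mg/kg in the first week, 10 mg/kg in the second and 15 mg/kg in the third. Behavioral tests followed on day 22, and the mice were sacrificed afterwards. No transgene or other agent is named for either group, and both groups are whole tissue, so fewer cells of a type and less RNA per cell cannot be told apart.

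ATF4 is a transcription factor that is made when the translation factor eIF2 is phosphorylated, as occurs when amino acids run short or unfolded proteins gather in the endoplasmic reticulum. Its control lies largely in translation, so that the amount of Atf4 mRNA does not by itself give the amount of the protein. ATF4 pairs with C/EBP family factors at composite C/EBP-ATF response elements and raises genes that make, import and recycle amino acids. In the brain, serine is made from a glycolytic intermediate mainly in astrocytes, and it feeds folate metabolism, glycine and the NMDA receptor co-agonist D-serine.

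The promoters of the members were read first, because the response element is the sequence through which ATF4 acts. RefSeq windows on GRCm38.p6, from 250 bases before to 50 bases after each annotated start, were found for all 10 members and were searched on both strands for the element core TGATGNAA. It was present in 4 of the 10 members, Asns, Slc7a11, Trib3 and Chac1, and in 4.51% of the 27025 genes with a window. The form TGATGCAA, which is contained in the first motif, was present in 2 members, Slc7a11 and Chac1, and in 1.03% of all genes. The stretches below carry these matches, in capitals, and are written 5' to 3' on the strand of each gene. Matches on the opposite strand read TTGCATCA or TTACATCA. For Slc7a11 (chr3:50443615-50443863, minus strand) and Chac1 (chr2:119350992-119351228, plus strand) the bases before the first annotated exon are shown, and for Asns (chr6:7693214-7693243, minus strand) and Trib3 (chr2:152344028-152344057, minus strand) the match with 11 bases on each side.

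Slc7a11: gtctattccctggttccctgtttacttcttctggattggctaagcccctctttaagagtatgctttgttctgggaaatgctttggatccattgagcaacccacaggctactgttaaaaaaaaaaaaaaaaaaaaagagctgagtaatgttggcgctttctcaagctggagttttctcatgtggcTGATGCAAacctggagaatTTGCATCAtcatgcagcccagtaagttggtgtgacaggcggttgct

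Chac1: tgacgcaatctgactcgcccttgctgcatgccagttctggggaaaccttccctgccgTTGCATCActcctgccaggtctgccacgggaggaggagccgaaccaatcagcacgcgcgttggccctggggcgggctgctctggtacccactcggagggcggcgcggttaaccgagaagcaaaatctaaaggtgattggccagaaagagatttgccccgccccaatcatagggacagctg

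Asns: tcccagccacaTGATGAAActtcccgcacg

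Trib3: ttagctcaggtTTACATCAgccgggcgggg

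In Slc7a11 the pair of matches stood in opposite orientations, at bases -66 to -59 and -47 to -40 from the RefSeq start. In Chac1 the match lay at -193 to -186, on the opposite strand. In Asns it lay at -23 to -16, which a longer annotated transcript includes. In Trib3 it lay at 15 to 22 after the RefSeq start, on the opposite strand, at bases 152344039 to 152344046. The GENCODE M21 gene runs from 152337422 to 152344032 on the minus strand, so the match lies before its start. No match was found in the windows of Phgdh, Psat1, Shmt2, Mthfd2, Slc3a2 and Sesn2, which says only that these letters are not in these windows.

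The deposited values lie on a log scale, read as log2 of RPKM (reads scaled to gene length and library size) plus 1. The table holds no read totals, and the depth of each library is unknown. Each log2 fold change is the MA mean minus the Control mean on that scale, tested with limma over 13321 genes. MA replicate 3 stood apart from the other libraries, with a limma sample quality weight of 0.194 against 0.937 to 2.45 for the other 5, and counts without it are given where it moved them. Without it 23.3% of all tested genes had an unadjusted p under 0.05, against 10.4% with it, and 257 genes passed the adjusted p, against 35. The neuron markers were the most abundant of the marker lists in 5 of the 6 libraries, with summed levels of 4570 to 4800 RPKM in Control and 4173 to 4952 RPKM in MA. In MA replicate 3 the choroid plexus markers were higher still. All 14 choroid plexus markers were higher in every MA library than in every Control library, and 7 passed an adjusted p of 0.05 (limma), 12 without MA replicate 3. Groups did not overlap, with MA higher, for 7.32% of all tested genes. The choroid plexus markers' summed level was 105.8, 221.7 and 482.3 RPKM in Control replicates 1, 2 and 3, and 1947, 2542 and 5346 RPKM in MA replicates 1, 2 and 3. Ttr, the transthyretin gene of the choroid plexus epithelium, and Enpp2, which encodes autotaxin, had log2 fold changes of 4.09 and 2.13 (limma adjusted p = 0.0887 and 0.0244). Ttr in MA replicate 3 stood at 12.30, the highest value of every library. All 5 erythrocyte markers measured and 3 of 11 meningeal fibroblast markers were also non-overlapping and higher in MA. Past the adjusted p (limma) were 3 and 1 of them, and 5 and 3 without MA replicate 3. Their summed levels were 1599 to 2024 RPKM and 43.7 to 54.3 RPKM in Control, against 3319 to 4378 RPKM and 89.9 to 115 RPKM in MA. The most abundant of them were the hemoglobin genes Hba-a2 and Hbb-bs, with log2 fold changes of 1.06 and 0.97 (limma adjusted p = 0.0327 and 0.0394), and Igf2 and Dcn, at 1.26 and 1.30 (limma adjusted p = 0.0783 and 0.140). The other 8 meningeal markers overlapped between groups, with log2 fold changes from -0.14 to 0.21, and the median of the list was 0.073. Slc13a4 was the remaining meningeal marker without overlap. No marker of these 3 lists was at 0 in any library. Their part in the values of the members was not tested.

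**Figure D1:**
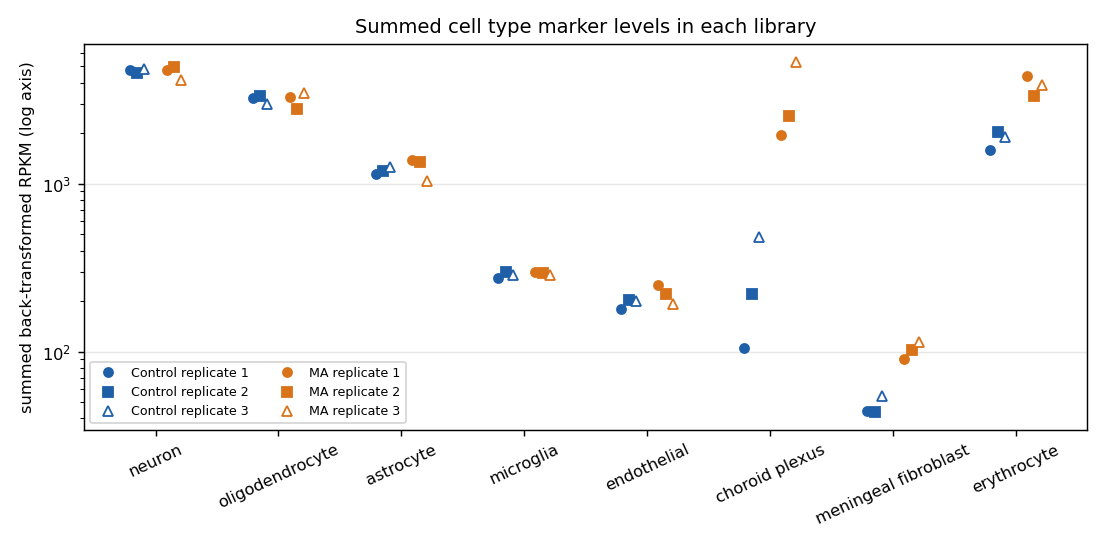
Summed levels of 8 cell type marker lists (back-transformed RPKM, log axis) in each of the 3 Control libraries (blue) and 3 MA libraries (orange). The choroid plexus sums run from 105.8 to 482.3 in Control and from 1947 to 5346 in MA, while the neuron sums lie between 4173 and 4952 in all 6 libraries.

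None of the 9 members tested passed an adjusted p of 0.05 (limma, Benjamini-Hochberg adjustment over 13321 genes), a threshold that 0.263% of all tested genes passed. At an unadjusted p of 0.05, which 10.4% of all tested genes reached, the count of members was also 0, the smallest p being 0.0595. The log2 fold changes of 6 members were below 0 and those of 3 above 0, where 52.7% of all tested genes were below 0. The members' median was -0.071, against -0.010 for the 13321 tested genes. Without regard to sign the median was 0.188, against 0.112 for all tested genes, of which 72.4% had a smaller change than 0.188. The members' log2 fold changes ranged from -0.34 for Slc7a11 to 0.19 for Chac1. The 95% confidence intervals of all 9 crossed 0 and lay within 1 on either side of it, that is, within a 2-fold change on this scale, and 5 lay within 0.5 on either side. These bounds hold for the offset of 1, which compresses differences of scarce genes. An offset of 0.01 moved Slc7a11, Mthfd2 and Chac1 most, to log2 fold changes of -0.52, -0.41 and 0.27. Intervals at that offset are not given here. The MA and Control libraries did not overlap for 2 members, Phgdh with MA lower and Slc3a2 with MA higher. That is 22.2% of the 9, beside 17.5% of all tested genes. With 3 libraries in each group, the smallest two-sided p that an exact permutation test can reach is 0.1, which both members had.

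**Figure D2:**
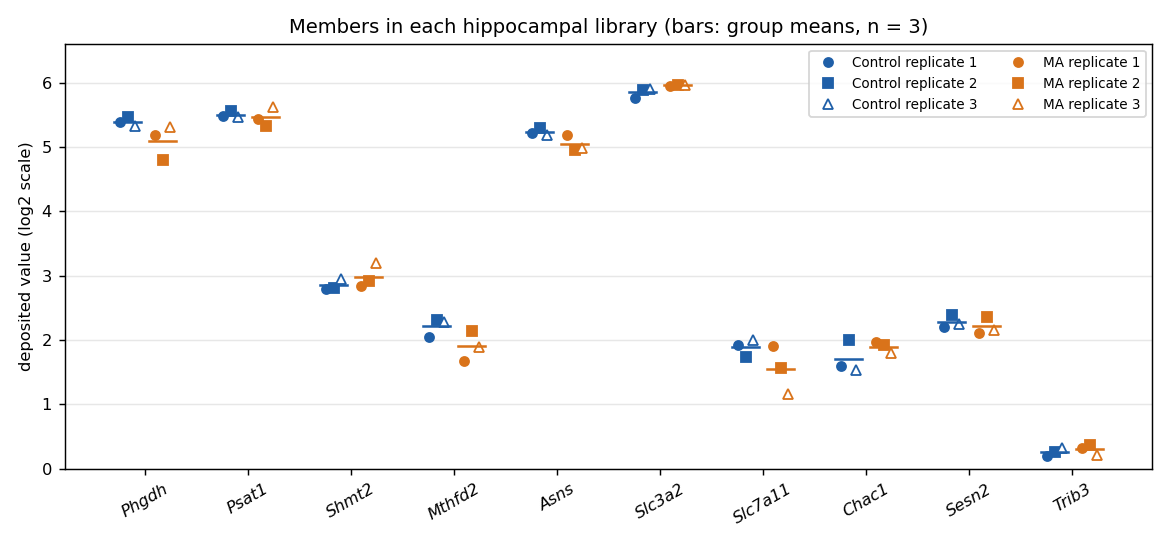
Deposited value (log2 scale, y axis) of each of the 10 members in the 3 Control libraries (blue) and the 3 MA libraries (orange), with bars at the group means. Points of both groups interleave for every member but Phgdh and Slc3a2, and Trib3 lies near 0 in all 6 libraries.

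In the control libraries the members fell into a group of abundant genes and a group of scarce ones. On the log2 scale, which is per gene length, the order was Slc3a2 (5.85 ± 0.08), Psat1 (5.50 ± 0.05), Phgdh (5.39 ± 0.07) and Asns (5.23 ± 0.05), followed by Shmt2 (2.85 ± 0.09), Sesn2 (2.28 ± 0.10), Mthfd2 (2.21 ± 0.14), Slc7a11 (1.89 ± 0.14), Chac1 (1.71 ± 0.25) and Trib3 (0.26 ± 0.06), each with the SD of n = 3. The libraries of Psat1 and Phgdh, of Sesn2 and Mthfd2, and of Slc7a11 and Chac1 overlapped. Within the same library, Psat1 lay above Phgdh in every Control library. Sesn2 lay below Mthfd2 in Control replicate 3, and Slc7a11 below Chac1 in Control replicate 2, so the order of these pairs was not constant. Back-transformed, the control means ran from 56.8 RPKM for Slc3a2 to 0.200 RPKM for Trib3. The enzymes of serine and asparagine synthesis were thus among the abundant members, and the genes best known as stress-induced, Chac1 and Trib3, were the lowest.

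Phgdh (ENSMUSG00000053398, chromosome 3 of GRCm38 from 98313170 to 98339990) encodes phosphoglycerate dehydrogenase, the first enzyme of serine synthesis. Its log2 values were 5.38, 5.47 and 5.33 in Control replicates 1, 2 and 3 and 5.18, 4.80 and 5.30 in MA replicates 1, 2 and 3. Every MA library lay below every Control library, but MA replicate 3 did so by only 0.026, and MA replicate 2 lay far below the rest. The log2 fold change was -0.30 (SE 0.14, 95% interval -0.62 to 0.016, limma adjusted p = 0.499). This value was -0.15 without MA replicate 2 and -0.41 without MA replicate 3, with limma adjusted p-values of 0.748 and 0.118. With sample quality weights, which give MA replicate 3 little influence, the limma adjusted p was 0.0549, the lowest of any member under any alternative. Phgdh is uncertain for another reason, since 8 annotated pseudogenes have transcripts that match it at 95% identity or more over at least 500 bases, and reads could be split between them.

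Psat1 (ENSMUSG00000024640, chromosome 19 from 15904678 to 15947337) encodes phosphoserine aminotransferase, the next enzyme of the pathway. It measured 5.48, 5.57 and 5.46 in the Control libraries and 5.43, 5.32 and 5.63 in the MA libraries, in the order of the replicate numbers. MA replicate 2 was the lowest of the 6 and MA replicate 3 the highest, so the Control libraries lay inside the range of the MA libraries. Psat1 had a log2 fold change of -0.046 (SE 0.10, 95% interval -0.28 to 0.18, limma adjusted p = 0.918), and its sign turned without MA replicate 2, where it was 0.024, while without MA replicate 3 it was -0.13. Psph, which encodes the phosphatase that completes serine synthesis, belongs to the list of further enzymes described with the pathway lists.

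Shmt2 and Mthfd2 carry serine carbon into mitochondrial folate metabolism. Shmt2 (ENSMUSG00000025403, chromosome 10 from 127517123 to 127522444) encodes the mitochondrial serine hydroxymethyltransferase. Its log2 values were 2.79, 2.81 and 2.95 in Control and 2.83, 2.92 and 3.20 in MA. Only MA replicate 3 lay above all Control libraries. The groups differed by 0.13 on the log2 scale (SE 0.12, 95% interval -0.16 to 0.42, limma adjusted p = 0.769), by 0.022 without MA replicate 3 and by 0.21 without MA replicate 1. An annotated exon of Ndufa4l2 on the other strand shares 32 of its 3109 exonic bases, and strand use in counting is not given in the sources used here. Mthfd2 (ENSMUSG00000005667, chromosome 6 from 83305691 to 83325908), the mitochondrial methylenetetrahydrofolate dehydrogenase, measured 2.05, 2.31 and 2.28 in Control and 1.68, 2.14 and 1.89 in MA. MA replicates 1 and 3 were below every Control library, and MA replicate 2 was above Control replicate 1. Mthfd2 had a log2 fold change of -0.31 (SE 0.15, 95% interval -0.65 to 0.028, limma adjusted p = 0.519), which was -0.20 without MA replicate 1 and -0.43 without MA replicate 2.

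Asns (ENSMUSG00000029752, chromosome 6 from 7675169 to 7693254) encodes asparagine synthetase, a classic gene of amino acid shortage. It measured 5.22, 5.29 and 5.19 in Control and 5.19, 4.95 and 4.98 in MA. MA replicates 2 and 3 lay below the Control libraries, and MA replicate 1 was level with Control replicate 3. For Asns the log2 fold change was -0.19 (SE 0.09, 95% interval -0.41 to 0.023, limma adjusted p = 0.527). The value was -0.27 without MA replicate 1, and the limma adjusted p over the alternatives ran from 0.124 to 0.896.

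Slc3a2 and Slc7a11 encode the heavy and light chains of system xc-, which imports cystine in exchange for glutamate, and Slc3a2 is also the partner of other light chains. Slc3a2 (ENSMUSG00000010095, chromosome 19 from 8706882 to 8723369) measured 5.76, 5.89 and 5.91 in Control and 5.94, 5.97 and 5.96 in MA. The MA libraries were all above the Control libraries, by 0.037 at the nearest point. This gave a log2 fold change of 0.11 (SE 0.08, 95% interval -0.068 to 0.28, limma adjusted p = 0.683), which lay between 0.062 and 0.14 with each library left out. Slc7a11 (ENSMUSG00000027737, chromosome 3 from 49892526 to 50443614) measured 1.93, 1.73 and 2.01 in Control and 1.91, 1.57 and 1.16 in MA. MA replicate 3 was the lowest of all, and MA replicate 1 lay inside the Control range. Slc7a11 had a log2 fold change of -0.34 (SE 0.19, 95% interval -0.80 to 0.11, limma adjusted p = 0.602), the widest interval of the 9 members. Without MA replicate 3 it was -0.15, and without MA replicate 1 it was -0.53. The light chain and the heavy chain of the same transporter thus had point estimates of opposite sign. The 95% interval of each crossed 0.

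Chac1 (ENSMUSG00000027313, chromosome 2 from 119351229 to 119354381) encodes a glutathione-degrading enzyme of the unfolded protein response. Its log2 values were 1.60, 1.998 and 1.53 in Control and 1.97, 1.92 and 1.80 in MA. Control replicate 2 was the highest of the 6, and the other Control libraries were the lowest. The groups differed by 0.19 on the log2 scale (SE 0.15, 95% interval -0.15 to 0.53, limma adjusted p = 0.715), by 0.33 without Control replicate 2 and by 0.097 without Control replicate 3. Sesn2 (ENSMUSG00000028893, chromosome 4 from 132492032 to 132510501) encodes sestrin 2, a leucine sensor that restrains mTORC1. It measured 2.20, 2.39 and 2.26 in Control and 2.12, 2.36 and 2.16 in MA. The groups interleaved, with a log2 fold change of -0.071 (SE 0.11, 95% interval -0.33 to 0.19, limma adjusted p = 0.881). It was -0.14 without MA replicate 2 and -0.017 without Control replicate 2.

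Trib3 (ENSMUSG00000032715, chromosome 2 from 152337422 to 152344032) encodes a pseudokinase that is induced by ATF4 and inhibits AKT. It lay below the filter of 0.5 RPKM in all 6 libraries and was not tested with the others. The values were 0.20, 0.27 and 0.32 in Control and 0.31, 0.37 and 0.22 in MA. The ranges overlapped almost entirely, at a level where the offset of 1 compresses differences. In a fit with no filter the log2 fold change was 0.040 (SE 0.06, limma adjusted p = 0.888 over 16060 rows).

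**Figure D3:**
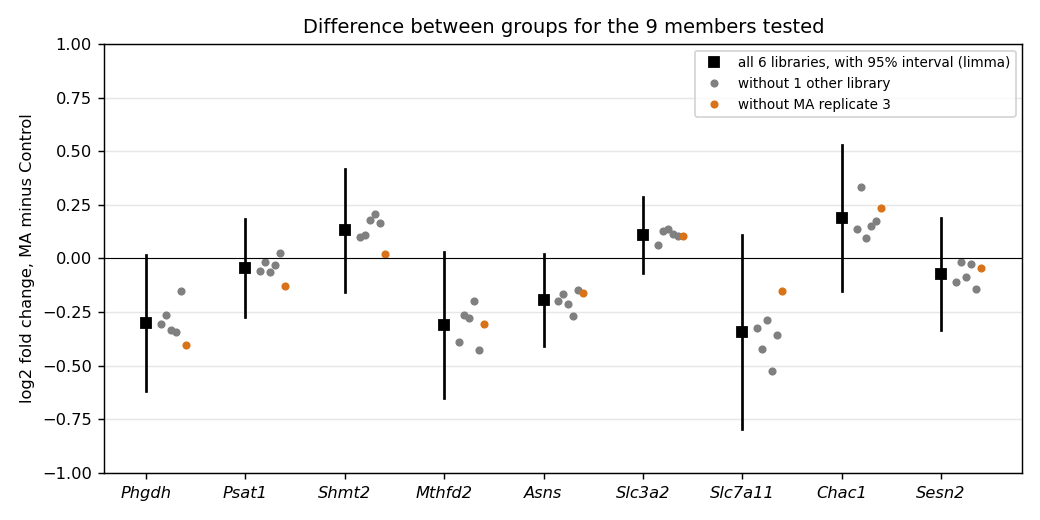
Log2 fold change, MA minus Control (y axis), of the 9 members tested, with all 6 libraries (squares, bars are 95% intervals from limma) and with 1 library left out (dots, orange without MA replicate 3). Every interval crosses 0, and the dots of Psat1 lie on both sides of it.

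No library was the extreme of every member. Of the 10 members, 5 were highest in Control replicate 2 and 3 were lowest in MA replicate 2, while 3 were lowest in Control replicate 1. The same shares over all tested genes were not computed. Leaving out 1 library at a time, the members at an unadjusted p under 0.05 numbered from 0 to 2 and were not the same ones. They were Mthfd2 without Control replicate 1 or without MA replicate 2, Chac1 without Control replicate 2, Slc7a11 and Asns without MA replicate 1, and Phgdh without MA replicate 3. The count stayed 0 without Control replicate 3. The share of all tested genes under that p was 6.22% to 8.69% in the fits without any 1 of the other 5 libraries and 23.3% without MA replicate 3.

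The gene for ATF4 itself and its partner factors were compared next. Of 9 such genes, 0 passed the adjusted p of 0.05 (limma), 2 had an unadjusted p under 0.05, both lower in MA, beside 10.4% of all tested genes, and the median log2 fold change was -0.23. Atf4 measured 6.28, 6.19 and 6.19 in Control and 5.91, 5.95 and 6.09 in MA. Every MA library was below every Control library, and MA replicate 3 was the nearest to them. The log2 fold change was -0.23 (SE 0.08, 95% interval -0.42 to -0.045, limma adjusted p = 0.383). The adjusted p of Atf4 was between 0.0476, with sample quality weights, and 0.837, with the replicate block, over the alternatives. Its unadjusted p was above 0.05 with the replicate block and without Control replicate 1, Control replicate 2, MA replicate 1 or MA replicate 2. Jdp2, which encodes a repressor of the same leucine zipper superfamily, measured 5.11, 4.97 and 5.12 in Control and 4.63, 4.78 and 4.78 in MA. Its groups did not overlap either, with a log2 fold change of -0.33 (SE 0.09, limma adjusted p = 0.257).

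Ddit3 and Cebpb were singled out after their values were seen, because their MA libraries lay apart from each other. Ddit3, the gene for the stress factor CHOP, measured 5.52, 5.35 and 5.60 in Control and 4.86, 5.05 and 5.50 in MA. Cebpb, for a C/EBP partner, measured 4.17, 4.10 and 4.08 in Control and 3.29, 3.35 and 4.48 in MA. For both genes MA replicates 1 and 2 lay below the Control libraries, while MA replicate 3 lay among them for Ddit3 and above them for Cebpb. Over all 6 libraries the limma adjusted p was 0.516 for Ddit3 and 0.692 for Cebpb. Without MA replicate 3, 6 of the 9 factor genes had an unadjusted p under 0.05, all lower in MA, and 1 passed the adjusted threshold. That gene was Cebpb, with a log2 fold change of -0.80 (SE 0.07, limma adjusted p = 0.0172). The same omission took the share of all tested genes under that p to 23.3%. Among the members it left 1 of 9, Phgdh, under that p and a median of -0.13.

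**Figure D4:**
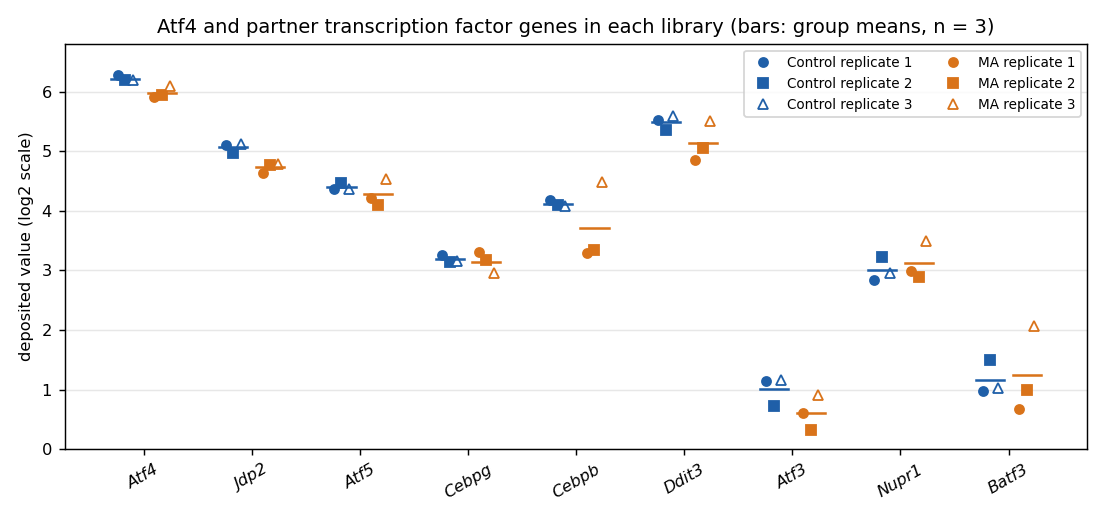
Deposited value (log2 scale, y axis) of Atf4 and 8 partner factor genes in the 3 Control libraries (blue) and the 3 MA libraries (orange), with bars at the group means. MA replicate 3 (open orange triangles) lies apart from MA replicates 1 and 2 for Cebpb and Ddit3.

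The wider pathway was described with lists of genes that do not include the members. Together with the factor genes these lists hold 129 distinct tested genes, of which 0 passed the adjusted p of 0.05 (limma) and 13, or 10.1%, had an unadjusted p under 0.05, beside the 10.4% of all tested genes. Of the 13, 7 were higher and 6 lower in MA. The median log2 fold change was -0.015. Without MA replicate 3 none of the 7 lists besides the factor genes had a gene past the adjusted p (limma), where 257 of all tested genes passed.

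Among 27 tested genes that are known to respond to ATF4, 1 was higher and 1 lower at an unadjusted p under 0.05. That p was reached by 10.4% of all tested genes. In the fit without MA replicate 3 there were 5 higher and 2 lower, beside 23.3% of all tested genes. Kdm7a, for a histone demethylase, had a log2 fold change of -0.57 (SE 0.13, limma adjusted p = 0.199), and Slc7a3, for a cationic amino acid transporter, one of 0.48 (SE 0.14, limma adjusted p = 0.306). Among 17 genes for the eIF2 kinases, eIF2 and its regulators there was also 1 in each direction. Without MA replicate 3 these were 1 higher and 2 lower, beside the same 23.3%. Eif2b2, a subunit of the exchange factor of eIF2, had a log2 fold change of 0.43 (limma adjusted p = 0.203), and Ppp1r15b, which directs dephosphorylation of eIF2, one of -0.32 (limma adjusted p = 0.344). Their groups did not overlap.

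In the 25 further enzymes of serine, glycine and folate metabolism 2 genes were under that p, beside 10.4% of all tested genes. Both were lower in MA. Gldc, the glycine decarboxylase of the mitochondrial cleavage system, measured 3.25, 3.26 and 3.17 in Control and 3.05, 2.74 and 2.79 in MA. All MA libraries were below the Control libraries, with a log2 fold change of -0.37 (SE 0.11, limma adjusted p = 0.329). Mthfd1l, which encodes a mitochondrial formyltetrahydrofolate synthetase, had a log2 fold change of -0.28 (SE 0.11, limma adjusted p = 0.450). Psph had a log2 fold change of 0.02 with overlapping groups (limma adjusted p = 0.985). The median of the list was -0.015, with 13 genes below 0 and 12 above. Without MA replicate 3 the genes under an unadjusted p of 0.05 were 4 lower and 2 higher, beside 23.3% of all tested genes.

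The 20 cytosolic aminoacyl-tRNA synthetases, several of which are ATF4 targets, had 10 genes below and 10 above 0, with a median of -0.0027 on the log2 scale. Qars was the 1 gene under an unadjusted p of 0.05, at 0.27 (limma adjusted p = 0.452), and Tars followed at -0.15 (limma adjusted p = 0.624). Of 25 amino acid transporters, 3 were under that p, beside 10.4% of all tested genes, and all 3 were higher in MA. Slc7a4 measured 4.40, 4.44 and 4.30 in Control and 4.77, 4.98 and 4.78 in MA, without overlap, a log2 fold change of 0.46 (SE 0.09, limma adjusted p = 0.151). Slc7a3 and Slc38a3 were the others, and the list's median was 0.0035. Without MA replicate 3 the synthetases had 1 gene higher and 1 lower under that p, and the transporters 4 higher and 1 lower. The share of all tested genes under that p in that fit was 23.3%. Among 15 sestrin and GATOR genes, which carry amino acid signals to mTORC1, 2 were under that p with all 6 libraries, beside 10.4%. These 2 were higher in MA. They were Castor1, listed as Gatsl3 and encoding an arginine sensor, at 0.48 (limma adjusted p = 0.243), and Nprl3, a GATOR subunit, at 0.36 (limma adjusted p = 0.382). The other tribbles genes, Trib1 and Trib2, had log2 fold changes of -0.21 and -0.18 with overlapping groups (limma adjusted p = 0.728 and 0.661).

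**Figure D5:**
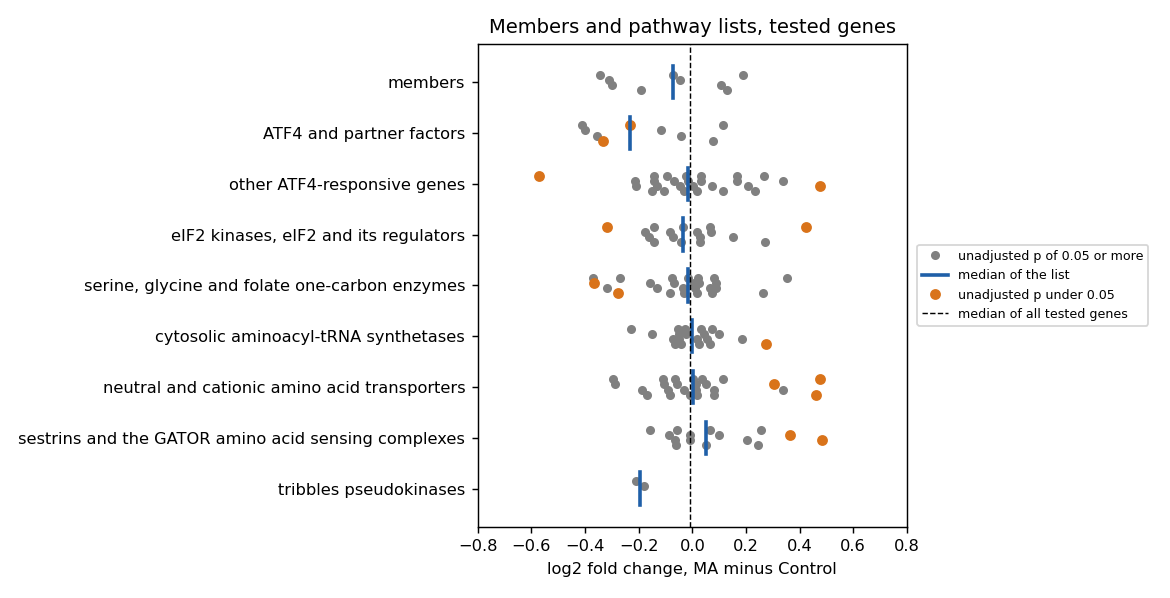
Log2 fold change, MA minus Control (x axis), of each tested gene of the members and of 8 pathway lists, orange where the unadjusted limma p is under 0.05, with the median of each list (blue bar) and of all tested genes (dashed line). No member is orange, and the medians run from -0.23 for ATF4 and partner factors to 0.050 for the sestrin and GATOR genes.

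Astrocyte genes were set beside the serine synthesis genes because that pathway is mainly astrocytic. The summed level of 12 astrocyte markers was 1148, 1194 and 1250 RPKM in Control and 1377, 1350 and 1034 RPKM in MA, so MA replicate 3 was the lowest and the other MA libraries the highest. Of the 12, 9 had log2 fold changes below 0 and 3 above, with a median of -0.066. At an unadjusted p under 0.05, 1 was higher in MA, Fgfr3, and 1 lower, Aqp4, and none passed the adjusted threshold (limma). That unadjusted p was reached by 10.4% of all tested genes. Without MA replicate 3 there were 4 higher and 0 lower, beside 23.3% of all tested genes, and 1 passed. Phgdh did not follow the order of that sum, being lowest in MA replicate 2. The markers also differed among themselves. Aldh1l1 and Ntsr2 were lowest in MA replicate 2, Gjb6, Aldoc and Fgfr3 in Control replicate 1, and the others in MA replicate 3. The oligodendrocyte, microglia and endothelial marker lists had medians of -0.20, -0.018 and 0.11, with 1 lower, 0 and 2 higher genes at an unadjusted p under 0.05, while without MA replicate 3 the oligodendrocyte list had 6 lower of 9, the microglia list 1 in each direction of 10 and the endothelial list 5 higher of 10, of which 1 passed the adjusted p (limma), again beside 23.3% of all tested genes. Of the 9 neuron markers measured the count was 0 (2 higher and 1 lower without MA replicate 3), and their median was -0.012. Among the most abundant markers of these lists, Aldoc, Slc1a2, Nrgn, Snap25, Mbp, C1qa, C1qb, Ly6c1 and Cldn5 had log2 fold changes between -0.12 and 0.30 with limma adjusted p-values from 0.241 to 0.954. Whether the make-up of the tissue has a part in the members' values was not tested.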

How the data were processed

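RNA-seq of 6 hippocampi was used, with 3 libraries per group. The paper's methods name Hisat2, featureCounts and FPKM by gene length, whereas the submitters' processing notes name Bowtie 0.12.2 with mm8 and mm9. The table that the authors deposited is named RPKM, yet holds log2 values. An offset of 1 was inferred from a lowest value of 0 in every library but MA replicate 3, where it was 0.00021. The values were made comparable between libraries by a step not given in the sources used here. The highest value was 12.298 in all 6 libraries, and 10.7688 recurred for Ttr, Nrgn and Mbp in different libraries. The libraries thus share values of a common distribution, and RPKM stands here for these adjusted values. Genes with at least 0.5 RPKM in at least 3 libraries were tested with limma 3.58.1 in R 4.3.3 (lmFit, eBayes with a trend, no covariate, Benjamini-Hochberg adjustment), after the script had been tested on simulated data. No text says that the libraries came from separate litters or days, so p-values measure the spread between these samples. The members and gene lists were chosen with earlier results of these data known. Named genes were all members, the 2 genes of smallest p in each pathway list (or all past the adjusted threshold) and the 2 genes of highest mean in each marker list, of which 1 is not reported here. Other genes, Ddit3, Cebpb, Psph, Slc38a3, Slc13a4, Fgfr3, Aqp4, Aldh1l1, Ntsr2, Gjb6 and Ndufa4l2, were named after their values or places were seen. Similar transcripts were sought with blastn 2.17.0. Gene places are those of GENCODE M21 on GRCm38, a build the sources do not name, and promoters are from RefSeq. Alternatives were other offsets (0.1, 0.01), filters, normalizations, variance models, sample weights, a replicate block and the omission of each library.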

Additional observations from a re-analysis of the deposited data

How the results depend on the processing

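The count of members past an adjusted p of 0.05 was 0 under all 15 alternatives. The count at an unadjusted p under 0.05 was 2 of 9 with sample quality weights (Asns and Phgdh), beside 26.3% of all tested genes, and from 0 to 2 with 1 library left out (2 without MA replicate 1, 1 without Control replicates 1 or 2 or MA replicates 2 or 3, and 0 without Control replicate 3), beside 6.22% to 23.3% of all tested genes. Members whose groups do not overlap numbered from 3 (without Control replicate 1 or MA replicate 3) to 4 with 1 library left out, where the share of all tested genes without overlap was 23.6% to 42.9%. The log2 fold change of Psat1 turned to 0.024 without MA replicate 2 and was -0.13 without MA replicate 3, and the cause was not tested. The other 130 member values kept their sign and their side of the adjusted threshold. Same-numbered libraries did not deviate together (Pearson's r of their deviations -0.197, -0.242 and -0.337 for replicates 1, 2 and 3), and with the replicate block 0 members passed and the smallest limma adjusted p of a member was 0.812. Over all tested genes the 35 calls became 586 with sample quality weights, 257 without MA replicate 3, 20 with a minimum mean of 5, 15 with the replicate block or without MA replicate 1, 3 with no filter or without Control replicate 1, and 0 without Control replicate 2, Control replicate 3 or MA replicate 2. A minimum mean of 5 left 5 members to test. Depth is unknown, and the widest intervals were those of Slc7a11 and Chac1, both scarce.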
